A study of Mus musculus with 18 samples.

Results

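The experiment described here set small RNA retained on an MRTF-A 3'UTR bait against the input RNA of the same kind of lysate, both from differentiated C2C12 cells. It holds 6 of the 18 libraries of the series: 3 eluates of the MRTF-A bait and 3 inputs, taken by the column names of the deposited table, with all of its 2042 miRNA names. C2C12 is a mouse myoblast line whose cells withdraw from the cell cycle and fuse into myotubes when serum is lowered. Per the labels, cells were grown with 10% fetal calf serum and differentiated for 7 days in 2% horse serum. The state was taken from the sample titles, because the treatment text is the same for all libraries. Per the labels, each eluate was used whole, and input libraries were made from 8% of the input RNA (500 ng). Libraries were size-restricted small RNA libraries read over 50 bp. Undifferentiated cells grown with 10% fetal calf serum gave another 3 bait eluates and 3 inputs, and each state gave 3 eluates of an MS2 control. All of them came from the same cell line, and no genotype, transfection or drug is named. Libraries are called A, B and C after their column suffixes. Nothing in the labels ties the 3 libraries of a group to separate cultures. P-values therefore reflect the spread of these particular libraries, shared in the main fit over all 18, and that spread may be technical.

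MRTF-A, encoded by Mrtfa, is a coactivator of serum response factor. It moves between cytoplasm and nucleus with the state of the actin cytoskeleton, and with serum response factor it drives muscle and cytoskeletal genes. A miRNA is a short RNA that guides an Argonaute protein to a messenger RNA, mostly to its 3'UTR, and pairing of the seed, bases 2 to 8 of the miRNA, is the main determinant of target choice. A hairpin precursor gives a 5p and a 3p arm, which are different sequences with different seeds. In miTRAP, an RNA bait tagged with MS2 hairpins is held on a resin by the MS2 coat protein, lysate is passed over it, and RNA that stays is eluted. Myotubes are known for a set of striated muscle miRNAs, the myomiRs, which include the miR-1, miR-133, miR-206, miR-208 and miR-499 families. An eluate and an input are each described here relative to their own library, by percent of reads or by CPM scaled to an effective library size. Fold changes and calls use the scaled CPM, so a miRNA called higher need not have a larger percent of reads. The comparison says nothing of absolute amounts.

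The mature sequences below are those of members on which the results turn, 5' to 3', with the seed in capitals. They come from RefSeq (GRCm38.p6), which held 251 of the 298 names tested (84.2%). The first 7 were above input in every eluate library and the last 4 below it in every one.
miR-31-5p: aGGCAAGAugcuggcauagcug
miR-206-3p: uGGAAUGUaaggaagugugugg
miR-3103-3p: uAACCUCUgauccuucccacag
miR-199a-5p: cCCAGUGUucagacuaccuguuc
miR-301a-3p: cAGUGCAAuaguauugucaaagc
miR-34b-5p: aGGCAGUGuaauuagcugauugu
let-7f-5p: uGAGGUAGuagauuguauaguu
miR-199a-3p: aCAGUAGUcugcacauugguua
miR-21a-5p: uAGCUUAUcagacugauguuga
miR-30a-5p: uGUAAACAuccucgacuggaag
miR-362-3p: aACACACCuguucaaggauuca
In GRCm38, miR-31-5p lies at chr4:88910614-88910635 in an exon of the long noncoding RNA AL805899.1. miR-206-3p lies at chr1:20679055-20679076 in an exon of the noncoding RNA Gm28653. miR-3103-3p is intronic in BC017158 (chr7:128288370-128288391). miR-199a-5p (chr1:162217844-162217866) and miR-199a-3p (chr1:162217883-162217904) lie in an exon of Dnm3os, antisense to an intron of Dnm3. miR-301a-3p is intronic in Ska2 (chr11:87113054-87113076), miR-21a-5p lies in an exon of Vmp1 (chr11:86584120-86584141), and miR-362-3p is intronic in Clcn5 (chrX:7241984-7242005). miR-30a-5p lies at chr1:23272274-23272295, and miR-34b-5p is antisense to an intron of Btg4.

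Seed sites were searched in the annotated 3'UTR of mouse Mrtfa, transcript ENSMUST00000134469.7, which spans chr15:81012281-81013284 on the minus strand (GRCm38) and lies in exon 15. It is 1004 bases long. The labels do not give the species or limits of the bait, so positions refer to the annotated sequence. An 8mer site pairs with miRNA bases 2 to 8 and has an A opposite base 1, a 7mer-m8 site lacks that A, a 7mer-A1 site pairs with bases 2 to 7 and has the A, and a 6mer site pairs with bases 2 to 7 alone. Only the transcript strand was searched, and sites of different miRNAs can overlap. The stretches shown here carry the sites of 3 miRNAs high on the bait, of miR-188-5p, of let-7 and of the depleted miR-21a-5p. Capitals mark the site.
miR-3103-3p, 7mer-m8: tgcgctagggaagggtcAGAGGTTgggg
miR-21a-5p, 7mer-m8: cactgtgggcagtgggcATAAGCTgtca
let-7, 6mer: agtctgtatagatgtataTACCTCtata
let-7, second 6mer: gtgggaaatgggtgtggtTACCTCcaca
miR-206-3p, 7mer-m8: caactctccactcacccACATTCCgtcc
miR-188-5p, 8mer: ctgactcaatgcagagAAGGGATAgagc
miR-31-5p, 7mer-A1: taaaacaaaaacactgaCTTGCCA
These stretches lie at chr15:81013240-81013267, chr15:81013113-81013140, chr15:81012822-81012849, chr15:81012750-81012777, chr15:81012494-81012521, chr15:81012357-81012384 and chr15:81012281-81012304, in the order printed. The miR-31-5p site takes the last 7 bases of the annotated 3'UTR, positions 998 to 1004.

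Values are CPM as deposited, read counts normalised to an effective library size. Input libraries held 314110 to 462847 reads and eluate libraries 306483 to 544504, and 1 read was worth 1.84 to 2.15 CPM in input and 3.33 to 5.14 CPM in the eluates. MS2 control eluates held 15562 to 23433 reads, with 1 read worth 27.1 to 34.3 CPM, so a miRNA at 0 there was below a much higher floor. The normalisation factors were 1.15 to 1.48 in input, 0.551 to 0.634 in the bait eluates and 1.24 to 2.37 in the control, so the scaling differed with the kind of library. Because of these factors the CPM of a library do not sum to the nominal total, and shares of reads are given as percent. Between libraries of one group the reads varied beyond counting error, with a chi-square of 28.01 to 76.28 per degree of freedom.

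A read was found for 1303 names in the 6 libraries: 1127 in input and 781 in the eluates, with 522 in input only and 176 in the eluates only. The eluates held 512 to 573 names per library against 724 to 830 in input. Of the 298 names with enough reads to test, 102 were higher on the bait (34.2% of those tested) and 112 lower (37.6%), so 71.8% passed an adjusted p of 0.05 in limma, and the median log2 fold change was -0.13. The libraries did not overlap for 123 miRNAs with the eluates above input (41.3%), and for 43.0% the eluates lay below it. With library totals in place of the deposited factors, 75 were higher, 35.2% of the calls against 47.7%, and the median was -1.13, a shift that moves every fold change down, so directions near 0 depend on the scaling. Of these calls, 74 higher and 108 lower held their call under all 6 scalings and tests, and 198 held in every fit that left out 1 library. The authors' deposited table of this comparison called 291 names, 146 of them higher. Of its calls, 217 were tested here, 211 were called with the same sign and 0 with the other.

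**Figure D1:**
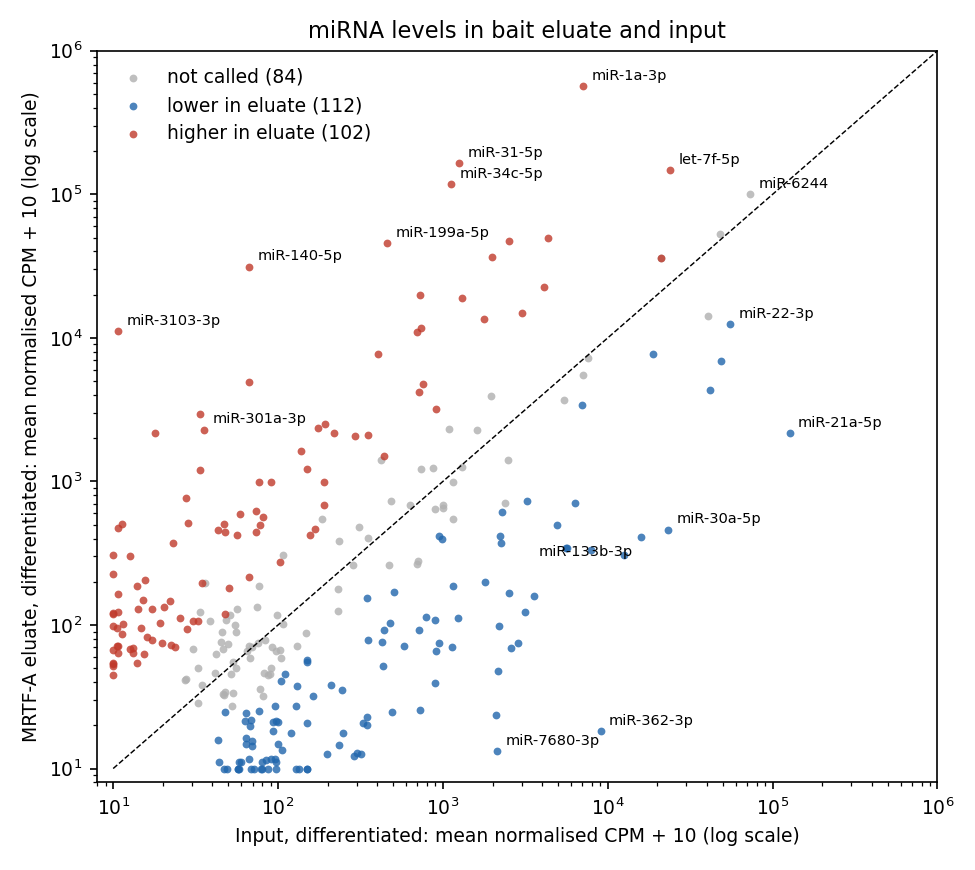
Mean CPM in the 3 differentiated inputs (x axis, log scale) against mean CPM in the 3 MRTF-A bait eluates (y axis, log scale), one point per miRNA tested and coloured by its call. miR-1a-3p, miR-31-5p and miR-34c-5p sit far above the diagonal at high eluate levels, and miR-21a-5p and miR-362-3p far below it.

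A few miRNAs made up most of what stayed on the bait, and most of them were minor in the input. The 8 most abundant took 72.1% of the eluate reads. miR-1a-3p, the main miRNA of differentiated striated muscle, took 32.9 ± 1.82% of the eluate and 0.947 ± 0.197% of input reads. miR-31-5p, which is expressed in myogenic cells and known to target Myf5, took 9.45 ± 1.27% and 0.165 ± 0.0246%. let-7f-5p, of a family that rises as cells leave proliferation, took 8.59 ± 1.14% of the eluate and 3.15 ± 0.206% of the input. miR-34c-5p, whose gene is a target of p53, made up 6.74 ± 1.32% and 0.145 ± 0.0238%. let-7g-5p took 2.90 ± 0.403% and 0.571 ± 0.0631%, and let-7c-5p took 2.73 ± 0.153% and 0.333 ± 0.0189%.

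The input was led by other miRNAs. In a bulk lysate fewer cells of a type and less RNA per cell cannot be told apart. miR-21a-5p, abundant in many cultured cells, took 16.7 ± 1.54% of input reads and 0.124 ± 0.00121% of the eluate. miR-22-3p, which is raised in muscle differentiation, took 7.27 ± 0.702% of input and 0.725 ± 0.161% of the eluate. miR-133a-3p, the partner of miR-1 in the same muscle clusters, took 5.41 ± 1.53% and 0.83 ± 0.289%, and miR-143-3p, best known from smooth muscle, took 5.37 ± 1.72% and 0.253 ± 0.0292%. miR-378a-3p, encoded in Ppargc1b, was abundant in both, at 6.34 ± 0.13% of input and 3.06 ± 0.467% of the eluate. miR-6241 took 6.37 ± 1.07% of input and 0.396 ± 0.0693% of the eluate. miR-6244 took 9.65 ± 1.89% of input and 5.74 ± 2.58% of the eluate, where library A stood apart with 157262, 75983 and 68105 CPM in A, B and C, and its fold change did not pass (0.38 ± 0.57, adjusted p = 0.568). It was the most abundant name of the differentiated MS2 control eluates, at 45.5%, 43.2% and 33.5% of reads in A, B and C.

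Of 8 myomiRs tested, 3 were higher, 3 lower and 2 not called, close to the 34.2% higher and 37.6% lower of all 298, with a median of -0.37, and the split was 2 to 4 higher and 3 to 4 lower over the other 5 scalings and tests. miR-1a-3p stood at 7094, 6447 and 7665 CPM in the inputs and at 554751, 612195 and 537132 CPM in the eluates. Every eluate library was at least an order of magnitude above every input library, with the mean 80.4-fold higher (log2 6.33 ± 0.61, adjusted p = 9.38e-08). miR-206-3p, specific to skeletal muscle and with the seed of the miR-1 family, stood at 1096, 1404 and 1396 CPM in the inputs and 18141, 19543 and 19554 CPM in the eluates. The 3 eluates lay close together and far from the inputs, at 14.7-fold on the means (log2 3.88 ± 0.53, adjusted p = 4.72e-06).

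miR-133b-3p comes from the same noncoding RNA as miR-206-3p and went the other way. It was at 9798, 17412 and 20579.9 CPM in the inputs and 344, 317 and 529.7 CPM in the eluates, 40.1-fold lower on the means (log2 -5.26 ± 0.65, adjusted p = 1.32e-06). miR-133a-3p, which differs from miR-133b-3p at the 3' end, was at 30478, 43409 and 48008 CPM in the inputs and 11523, 12507 and 18319.6 CPM in the eluates. Its groups did not overlap, but the fold change did not pass in limma on all 18 libraries (log2 -1.53 ± 0.82, adjusted p = 0.103). It passed as lower under each of 5 alternatives, with adjusted p = 0.0132 with library totals, 0.000896 with TMM and 0.000546 with relative log expression factors, 0.0104 in edgeR and 0.0263 in DESeq2, and 0.000518 in limma on the 6 libraries alone. How the authors assigned reads that match both names is not given in the sources used here, so the difference between miR-133a-3p and miR-133b-3p is uncertain.

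The other myomiRs were rarer. miR-499-5p, encoded in an intron of Myh7b, was at 185, 182 and 200.01 CPM in the inputs and had 2 reads in the 3 eluates together, a ratio of 68.3 (95% counting interval 18.7 to 567) in favour of input. miR-208b-3p, from an intron of Myh7, had 0 eluate reads and was at least 3.06-fold lower, a direction fixed by the filter. miR-486-5p and miR-3107-5p are names for one mature molecule, and both count in the myomiR list. Their mean levels were close, at 21047 and 21119 CPM in input and 36023 and 36121 CPM in the eluates. Whether its reads were split between the names or counted under both is not given in the sources used here. miR-486-5p was at 21596, 23466 and 18079 CPM in the inputs and 37410.3, 35002 and 35657 CPM in the eluates. The eluates were all above the inputs, with log2 0.78 ± 0.37 (adjusted p = 0.0699) for miR-486-5p and 0.78 ± 0.34 (adjusted p = 0.0499) for miR-3107-5p, on both sides of the threshold. In limma on the 6 libraries alone miR-486-5p passed (adjusted p = 0.000989). With library totals miR-3107-5p turned direction (log2 -0.41), and its call ended in edgeR (adjusted p = 0.0521) and DESeq2 (0.0563).

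A list of 5 tested names that were singled out as candidates in earlier work on these libraries held miR-24-3p, both names of the miR-486 molecule, miR-206-3p and miR-1a-3p. Of these 4 were higher and 1 was not called, with 2 to 5 higher over the other scalings and tests, and the list is not independent evidence of its direction because it was chosen on these samples. miR-24-3p, which promotes muscle differentiation, was at 3356, 2553 and 3067 CPM in the inputs and 14003, 14216 and 16643 CPM in the eluates. All eluates were above all inputs (log2 2.32 ± 0.41, adjusted p = 7.30e-05). With library totals its log2 fold change was 1.13 and the adjusted p 0.0680.

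**Figure D2:**
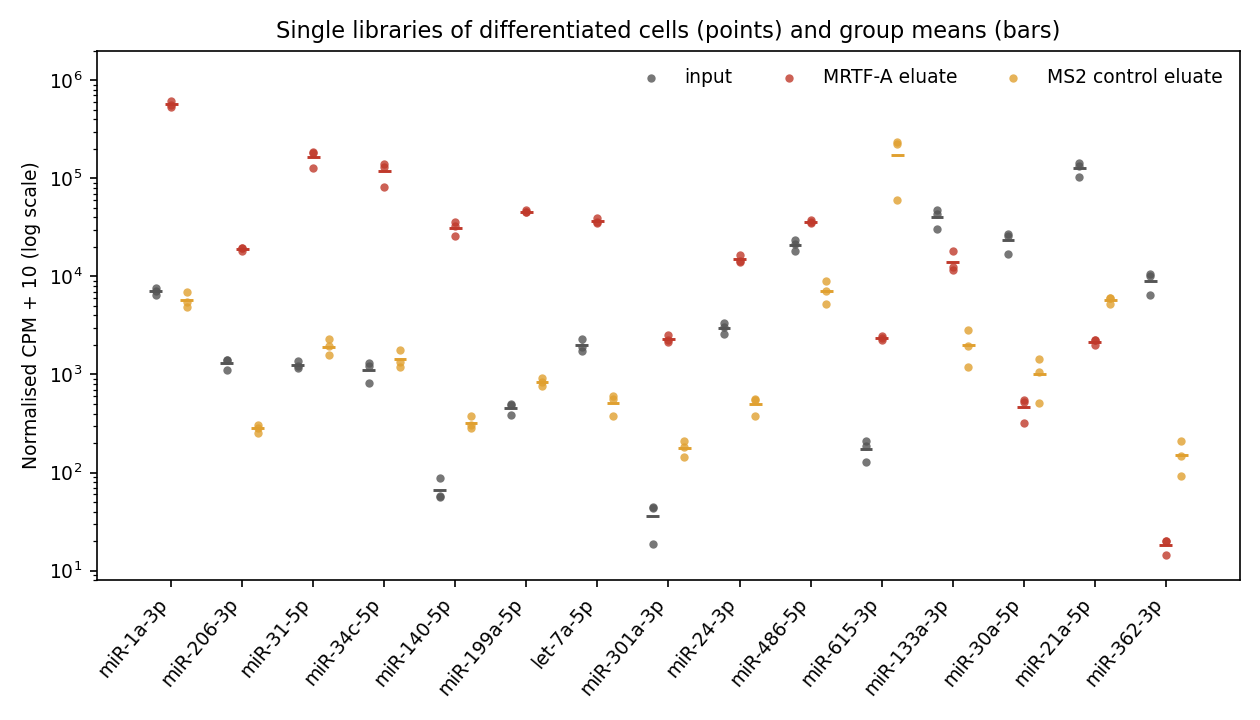
CPM on a log axis (values shown as CPM plus the pseudocount of 10) in each library of differentiated input, MS2 control and MRTF-A bait eluate for miRNAs named in the text, with 1 point per library. For miR-1a-3p, miR-31-5p and miR-206-3p the 3 bait points lie above all input and control points, and for miR-21a-5p they lie below them.

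Large gains on the bait were also seen for miRNAs that the input held at low to moderate levels. miR-140-5p, known from cartilage, was at 45.9, 77.0 and 47.3 CPM in the inputs and 35479, 32873 and 25782 CPM in the eluates, 553-fold higher on the means (log2 8.90 ± 0.48, adjusted p = 4.87e-11). miR-31-5p was at 1364, 1199 and 1168 CPM in the inputs and 181537, 186715 and 126062 CPM in the eluates. It was 132.5-fold higher (log2 7.02 ± 0.34, adjusted p = 3.31e-11), and the lowest eluate was far above the highest input. miR-199a-5p, a miRNA of mesenchymal cells, was at 481, 492 and 374 CPM and 47124, 45393 and 44919.6 CPM, 102-fold higher with no overlap of the libraries (log2 6.65 ± 0.33, adjusted p = 3.31e-11). miR-183-5p, known from sensory organs, was not among those chosen by the rule for named miRNAs and was picked after its values were seen: it rose from 729.8 ± 198 CPM to 11673 ± 1358 CPM (log2 4.01 ± 0.52, adjusted p = 2.25e-06).

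miR-3103-3p had 1 read in the 3 inputs and was at 14784, 11977 and 6748 CPM in the eluates. The ratio was 17673 (95% counting interval 3171 to 698116), and the fitted log2 fold change of 9.96 ± 0.71 (adjusted p = 1.91e-09) depends on the pseudocount. All 3 eluates were far above input, and library C held the least. miR-504-3p had 1 input read and was at 501, 439.8 and 453 CPM in the eluates, a ratio of 713 (95% counting interval 127.2 to 28263). miR-6982-3p had 2 input reads and was at 514, 703 and 257 CPM, a ratio of 404 (95% counting interval 111 to 3345). These 3 miRNAs were close to absent in input and present in every eluate library.

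Another 10 miRNAs had 0 reads in the inputs and passed in the direction of the bait. The filter can keep such a name only through its eluate reads, so their direction was fixed by it. The 3-read floor per library puts miR-7048-5p at least 50.6-fold, miR-568 at least 36.8-fold and miR-449a-5p at least 19.01-fold higher in the eluates. miR-568 was at 300.8, 203.2 and 144.01 CPM and miR-7048-5p at 353, 289.8 and 247 CPM, so each was seen in all 3 eluate libraries. The lowest bound of the 10 was that of miR-466p-3p, at least 5.92-fold. In the other direction 15 tested miRNAs had 0 eluate reads, kept likewise through their input reads. miR-145a-5p, a smooth muscle miRNA, was at least 10.9-fold lower, miR-21c at least 10.9-fold and miR-363-3p at least 9.23-fold lower. Bounds and intervals cover counting error only.

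let-7 miRNAs act in the timing of differentiation and mostly share the seed GAGGUAG. Of 11 names tested, 10 carry it, 8 of them higher, and let-7j carries GAGGUAU. Among the 11, 9 were higher, 0 lower and 2 not called, with a median log2 fold change of 2.92 against -0.13 over all 298. The shares over all 298 were 34.2% higher and 37.6% lower. With any of the 5 alternative scalings or tests, 9 were higher and 0 to 2 lower. let-7b-5p was at 685, 869.9 and 591 CPM in the inputs and 21986, 21249 and 16437 CPM in the eluates (log2 4.78 ± 0.33, adjusted p = 1.50e-09). let-7a-5p was at 1746, 2307 and 1914 CPM and 35392, 39153 and 35729 CPM (log2 4.21 ± 0.36, adjusted p = 2.58e-08). All eluates of both lay above all inputs.

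The gain within let-7 was uneven. let-7f-5p, the most abundant in input, was at 21649, 27447 and 22657 CPM and 134901, 154599 and 153839.7 CPM and gained 6.18-fold (log2 2.63 ± 0.34, adjusted p = 2.23e-06), while let-7b-5p gained 27.8-fold. let-7i-5p (log2 2.55 ± 0.38) and let-7e-5p (2.92 ± 0.34) were near let-7f-5p, and let-7c-5p (4.22 ± 0.31) and let-7d-5p (3.99 ± 0.35) near let-7a-5p. miR-98-5p, with the same seed, was not called: it was at 1002, 1276 and 1170.0 CPM in the inputs and 1055, 1006 and 879 CPM in the eluates, with overlapping libraries (log2 -0.22 ± 0.77, adjusted p = 0.812). let-7k was at 77.1 ± 26.1 CPM and 35.2 ± 11.3 CPM (log2 -0.93 ± 0.54, adjusted p = 0.136). The sequences differ outside the seed.
let-7a-5p: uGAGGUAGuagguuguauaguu
let-7b-5p: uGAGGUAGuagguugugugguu
let-7g-5p: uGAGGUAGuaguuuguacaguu
miR-98-5p: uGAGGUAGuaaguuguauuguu
let-7k: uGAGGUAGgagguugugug
Members differ by a few bases and the handling of reads that match several names is not given in the sources used here, so values for single let-7 members are uncertain.

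The miR-34 and miR-449 family, which acts downstream of p53 and in multiciliated cells, was higher in all 4 tested members under every scaling and test, with a median of 4.98 (5.36 with miR-449a-5p at its bound). Over all 298 miRNAs the share higher was 34.2%. miR-34c-5p was at 1214, 1308 and 800.1 CPM in the inputs and 131854, 139437 and 82526 CPM in the eluates (log2 6.72 ± 0.35, adjusted p = 4.01e-11). miR-34b-5p, from the same transcript, was at 25.7, 31.9 and 12.9 CPM and 3693, 3222 and 1959.5 CPM (log2 6.46 ± 0.70, adjusted p = 3.63e-07). miR-34a-5p came from 141.4, 248 and 234 CPM to 2376, 2439 and 1682 CPM, a smaller gain (log2 3.34 ± 0.42, adjusted p = 1.66e-06). No library of the eluates overlapped the inputs for these members. miR-449a-5p had 0 input reads and was at 174, 93.3 and 66.9 CPM in the eluates. The filter could keep it only through its eluate reads, so its direction was fixed and it adds nothing to the count.

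The miR-130 and miR-301 family, with the seed AGUGCAA, was higher in all 4 tested members under every scaling and test, with a median of 4.22, beside 34.2% higher over all 298. miR-301a-3p was at 34.9, 33.8 and 8.60 CPM in the inputs and 2215, 2489 and 2145 CPM in the eluates (log2 6.11 ± 0.43, adjusted p = 1.51e-09). miR-130a-3p was at 428, 374 and 385 CPM and 7686, 7476 and 7843 CPM (log2 4.24 ± 0.45, adjusted p = 2.91e-07). Each was higher in every eluate library than in every input library, and miR-130b-3p (log2 4.19 ± 0.52) and miR-301b-3p (ratio 132 (95% counting interval 22.8 to 5299), 1 input read) went the same way. miR-190a-5p (log2 3.99 ± 0.49) and miR-190b-5p (3.24 ± 0.32), which share the seed GAUAUGU, were both higher. The miR-148 and miR-152 family had 2 of 3 members higher, and 0 to 3 over the other scalings and tests: miR-148b-3p was at 898 ± 198 CPM and 3176 ± 556 CPM (log2 1.82 ± 0.35, adjusted p = 0.000167), and miR-152-3p just missed (log2 1.56 ± 0.70, adjusted p = 0.0542).

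**Figure D3:**
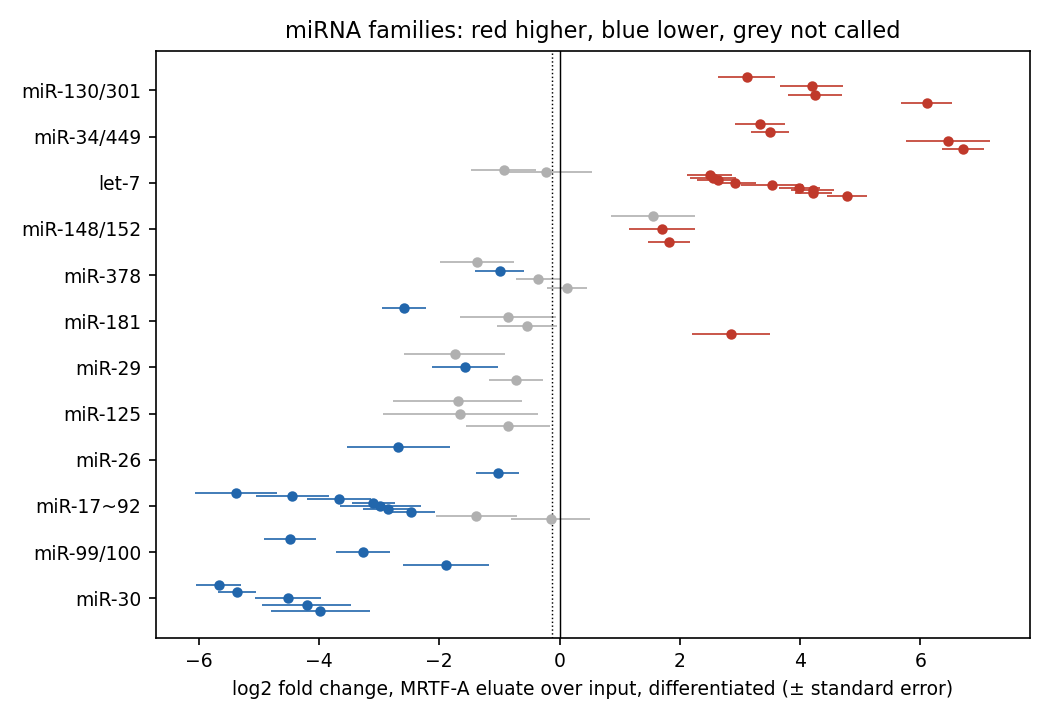
Log2 fold change of MRTF-A bait eluate over input in differentiated cells (x axis) for the tested members of miRNA family lists (rows). There is 1 point per miRNA, coloured by its call, with a bar for its standard error. A solid line marks no change, and a dotted line the median of all 298 miRNAs tested (-0.13). The points of let-7, of miR-34 with miR-449 and of miR-130 with miR-301 lie mostly to the right, and the miR-30, miR-99/100 and miR-17~92 points to the left.

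The miRNAs depleted on the bait included several that led the input. miR-21a-5p was at 135117, 141909 and 103652 CPM in the inputs and 2237, 2235 and 1980.1 CPM in the eluates, 59.0-fold lower (log2 -5.87 ± 0.32, adjusted p = 4.87e-11). miR-362-3p, from a cluster in Clcn5, was at 6468, 10165 and 10491 CPM in the inputs and had 6 reads in all in the eluates, at 4.36, 9.99 and 10.3 CPM. It had the lowest log2 fold change of all tested miRNAs, -8.94 ± 0.46 (adjusted p = 4.01e-11). No eluate library approached an input library for either. miR-7680-3p had 2 eluate reads and an input level of 2130.5 ± 973 CPM, a ratio of 766 (95% counting interval 212 to 6324) in favour of input, and miR-7680-5p was 153-fold lower (log2 -6.37 ± 0.75). miR-542-3p (-5.51 ± 0.65), miR-186-5p (-5.35 ± 0.54) and miR-6236 (-5.02 ± 0.58) were also among the 12 lowest.

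The miR-30 family, a broadly expressed family with the seed GUAAACA, was lower in all 5 members under every scaling and test, with a median of -4.51. Over all 298 miRNAs the share lower was 37.6%. miR-30a-5p was at 25868, 26867 and 17014 CPM in the inputs and 510.1, 536 and 309 CPM in the eluates (log2 -5.67 ± 0.37, adjusted p = 6.58e-10). miR-30d-5p was at 12964, 13060.3 and 11691 CPM and 305, 277 and 303 CPM (log2 -5.37 ± 0.32, adjusted p = 2.02e-10). Their groups were 51.5-fold and 42.6-fold apart, and miR-30e-5p (-4.51 ± 0.55), miR-30c-5p (-3.98 ± 0.82) and miR-30b-5p (-4.20 ± 0.74) followed. The family had no 8mer or 7mer site in the Mrtfa 3'UTR, and such a site stood in 14.6% of the other 3'UTRs.

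The miR-17~92 cluster and its paralogs, which promote proliferation, had 0 of 9 tested members higher and 7 lower, 8 under each other scaling or test, with a median of -2.98. Over all 298 miRNAs 34.2% were higher and 37.6% lower. miR-25-3p was at 3369, 3151 and 2058 CPM and 48.0, 33.3 and 113 CPM (log2 -5.37 ± 0.68, adjusted p = 1.95e-06), and miR-92a-3p at 7349, 7660.3 and 3916 CPM and 637, 776 and 684 CPM (log2 -3.10 ± 0.36, adjusted p = 6.95e-07). Both were below input in every eluate library. miR-17-5p was not called (-0.15 ± 0.66, adjusted p = 0.843). miR-363-3p and, in the miR-99/100 family, miR-99a-5p had 0 eluate reads, so the filter fixed their direction as lower. The miR-99/100 family had 3 of 3 lower under every scaling and test, with a median of -3.27 (-2.76 with miR-99a-5p at its bound), led by miR-99b-5p at 3552 ± 798 CPM in input and 149 ± 39.7 CPM in the eluates (log2 -4.49 ± 0.43, adjusted p = 8.28e-08).

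Members of a cluster or of a seed family did not always move together. In the miR-23/27/24 list, miR-24-3p was higher while miR-23b-3p (log2 -3.68 ± 0.82), miR-23a-3p (-3.19 ± 0.36), miR-27a-3p (-1.91 ± 0.37) and miR-27b-3p (-1.29 ± 0.28) were lower. That is 1 higher and 4 lower of 5, and 0 to 1 higher with 4 lower over the other scalings and tests. The miR-181 family had 1 higher and 1 lower of 4, with 0 to 1 higher and 1 to 3 lower under the others. miR-181b-5p was at 316, 321 and 206.5 CPM in the inputs and 2132, 2375 and 1723 CPM in the eluates (log2 2.86 ± 0.64, adjusted p = 0.000727), and miR-181c-5p at 2177, 2289 and 2215 CPM and 357, 363.1 and 370.3 CPM (log2 -2.58 ± 0.37, adjusted p = 6.92e-06). The libraries of neither overlapped, and the pair share their seed but not their 3' part.
miR-181b-5p: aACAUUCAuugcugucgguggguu
miR-181c-5p: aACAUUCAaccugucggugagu

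miR-26a-5p, abundant in muscle, was at 6923 ± 196 CPM in input and 3393 ± 316 CPM in the eluates (log2 -1.03 ± 0.35, adjusted p = 0.0142), and miR-26b-5p was lower too (-2.68 ± 0.86), under every scaling and test. In the miR-29 family, known for collagen targets, 1 of 3 was lower and 2 to 3 under the other scalings and tests, with miR-29a-3p at 2357 ± 389.9 CPM and 695 ± 112 CPM (-1.75 ± 0.84, adjusted p = 0.0710). It passed in limma on the 6 libraries alone (adjusted p = 7.11e-05). The miR-378 family had 1 of 4 lower, miR-378b, and 1 to 4 lower under the others, while miR-378a-3p was at 47407, 53891 and 43199 CPM and 54173, 47465 and 55900.1 CPM (0.13 ± 0.33, adjusted p = 0.761), with overlapping libraries. Neither tested member of the miR-15/16 family passed, and 0 to 1 was lower under the other scalings and tests. In the miR-125 family no member passed (0 to 1 lower under the others), and library C was low in both groups for miR-125a-5p (870.2, 1154 and 73.1 CPM in input and 414, 383 and 5.14 CPM in the eluates) and for miR-351-5p. On a proliferation list of 4 tested names 1 was higher (miR-31-5p) and 2 lower (miR-21a-5p and miR-221-3p), with 2 to 3 lower under the others, and miR-222-3p was not called (0.10 ± 0.43, adjusted p = 0.833), with log2 -1.07 and adjusted p 0.0372 under library totals.

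At the threshold itself, miR-342-3p (log2 1.39 ± 0.61, adjusted p = 0.0499) and miR-3107-5p lay just inside. miR-210-3p, induced by hypoxia (1.68 ± 0.74, adjusted p = 0.0526), and miR-152-3p lay just outside, and both passed in edgeR (0.00168 and 0.00278). Both also passed in limma on the 6 libraries alone (adjusted p = 0.000711 and 0.000325). With the libraries blocked by suffix, miR-210-3p (adjusted p = 0.0490) and miR-193a-3p (0.0440) passed and miR-342-3p (0.0518), miR-3107-5p (0.0527) and miR-9-5p (0.0524) did not. miR-221-5p passed with 1 eluate library far below the other two: it was at 11.02, 13.2 and 0 CPM in the inputs and 3305, 3142 and 56.6 CPM in the eluates (log2 5.71 ± 1.18, adjusted p = 0.000344). Its log2 fold change was 7.58 without eluate C, 4.76 without eluate A and 4.79 without eluate B. Calls of miR-342-3p, miR-3107-5p and miR-9-5p ended whichever of the 6 libraries was left out, and so did that of miR-378b, except without eluate A. miR-100-5p lost its call without input A (adjusted p = 0.0766), eluate A (0.0808) or eluate C (0.0726), and miR-345-5p without eluate C (0.0546).

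Of 52 hairpins with both arms tested, 10 had arms called in opposite directions, 9 of them with the 5p arm higher and the 3p arm lower. Of all 298 names 34.2% were higher and 37.6% lower, so the count is only a description. Another 4 had both arms higher and 11 both lower, and the median absolute difference between arms was 2.45 on the log2 scale. For miR-140 the 5p arm had a log2 fold change of 8.90 and the 3p arm -3.94: miR-140-3p was at 2798, 3142 and 1628 CPM in the inputs and 118, 237 and 118 CPM in the eluates. The input held far more 3p than 5p, and the eluates far more 5p than 3p.

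For miR-199a the arms were at 6.65 and -4.04. miR-199a-3p was at 5699, 6708 and 4424 CPM in the inputs and 353, 383 and 257 CPM in the eluates, and miR-199b-3p, which has the same mature sequence, was at 5609 ± 1065 CPM and 332 ± 51.8 CPM. The 5p arm of miR-199b also rose, from 2.67 ± 1.41 CPM to 57.6 ± 6.59 CPM (adjusted p = 9.04e-07). The arms of miR-199a, printed above, carry different seeds.

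miR-31 had a higher 5p arm and a 3p arm at 45.9, 65.8 and 36.6 CPM in the inputs, with 1 eluate read, a ratio of 36.2 (95% counting interval 6.30 to 1446) in favour of input. miR-221-5p and miR-221-3p stood at log2 5.71 and -4.69, with miR-221-3p at 3286, 3972 and 2093 CPM and 143.9, 126.6 and 66.9 CPM. The others with the 5p arm higher were miR-7068 (ratio 232 (95% counting interval 40.8 to 9252) for the 5p arm, with 1 input read, and log2 -2.78 for the 3p arm), miR-28a (3.58 and -3.05), miR-188 (3.40 and -1.47) and miR-350 (1.35 for the 5p arm and, with 1 eluate read, a ratio of 54.0 (95% counting interval 9.50 to 2151) against the 3p arm). miR-214, transcribed with miR-199a, was the reverse: miR-214-3p was at 75.3, 90.2 and 75.3 CPM and 1094, 909.5 and 957 CPM (log2 3.47 ± 0.68, adjusted p = 0.000198), and miR-214-5p at 135.9, 137.2 and 90.3 CPM and 34.9, 26.7 and 20.6 CPM (log2 -1.81 ± 0.55, adjusted p = 0.00677). The libraries of each arm did not overlap. Of the 6 names of the miR-199 and miR-214 list, 3 were thus higher and 3 lower, under every scaling and test. The call of miR-350-5p ended with library totals (adjusted p = 0.548).

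A special case was miR-1b-5p, which is complementary to miR-1a-3p. It was at 47.7, 60.1 and 62.4 CPM in the inputs and 4338, 4867 and 5637 CPM in the eluates (log2 6.21 ± 0.33, adjusted p = 4.87e-11), a gain close to that of miR-1a-3p. The strand used in counting is not given in the sources used here, so reads of the pair cannot be told apart.

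**Figure D4:**
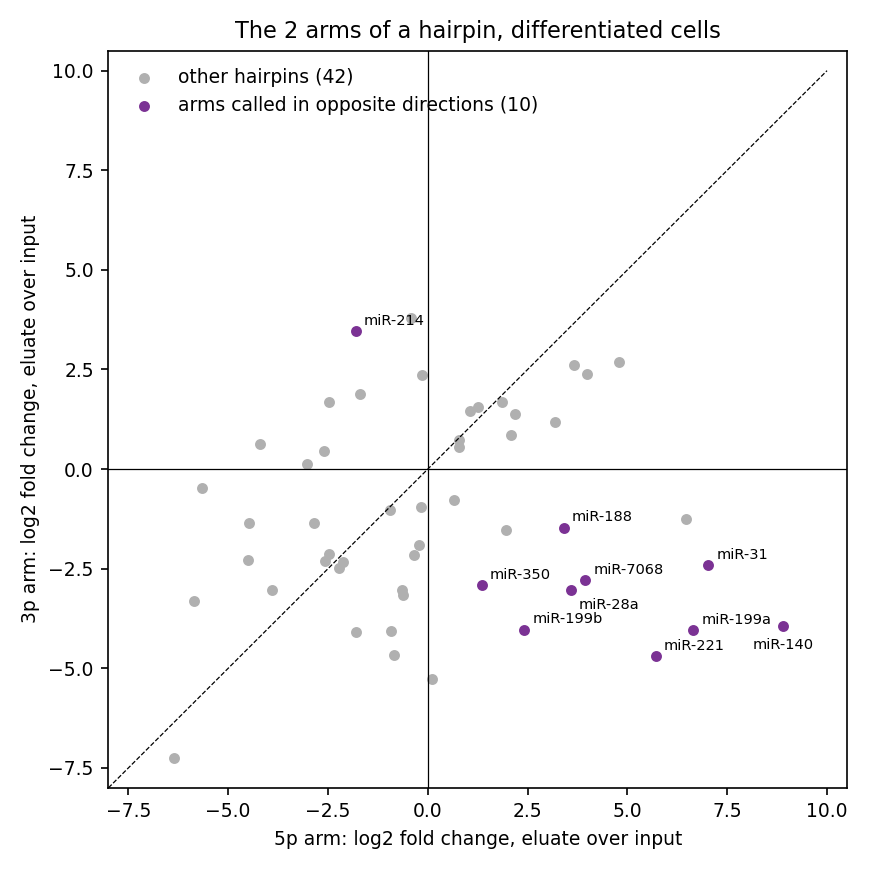
Log2 fold change of the 5p arm (x axis) against that of the 3p arm (y axis) for the 52 hairpins with both arms tested, bait eluate over input in differentiated cells, with opposite calls marked. The 9 hairpins with a higher 5p and lower 3p arm lie at lower right, led by miR-140 and miR-199a, and miR-214 lies alone at upper left.

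Calls were also read by seed family. Of 28 seeds with at least 2 tested members, 3 had all members higher, namely miR-130 with miR-301, miR-190, and miR-34 with miR-449. Another 10 had all members lower, and the miR-181 seed alone had members called in both directions. Single names were higher in 34.2% and lower in 37.6% of all 298. Members without a read in input or without one in the eluates, such as miR-449a-5p, miR-99a-5p and miR-21c, had their direction fixed by the filter. The highest medians were 4.24 for miR-130 with miR-301, 3.61 for miR-190, 3.51 for miR-34 with miR-449 (4.25 with miR-449a-5p at its bound) and 3.23 for the let-7 seed. The lowest were -4.87 for miR-21a-5p with miR-21c (-4.65 with miR-21c at its bound), -4.51 for miR-30 and -4.04 for miR-199a-3p with miR-199b-3p. Members of a family share sequence and may share reads, so they are not independent.

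An 8mer or 7mer site for the seed stood in the Mrtfa 3'UTR for 37 of the 251 miRNAs with a sequence (14.7%), and a given seed had such a site in a mean of 12.4% of 10144 other 3'UTRs of the same length. Of these 37, 20 were higher (54.1%) and 12 lower (32.4%), with a median log2 fold change of 1.70. Of those without, 64 were higher (29.9%) and 84 lower (39.3%), with a median of -0.45. Over all 251 the shares were 33.5% and 38.2%. Names without a sequence are outside these counts, and they include miR-1a-3p, miR-34c-5p, miR-140-5p and miR-378a-3p, which stood high on the bait. Against the MS2 control, compared on the deposited scaling alone, the shares lay closer together. There, 56.8% of those with a site and 49.5% of those without were higher, beside 51.7% over all 298. With 6mers counted too, 51 of 85 with a site were higher (60.0%) and 20 lower (23.5%), against 19.9% higher of the 166 without, and against the control 68.2% and 41.6% were higher. Only 3 miRNAs had an 8mer: miR-188-5p was at 29.4, 45.1 and 25.8 CPM in the inputs and 558, 369.8 and 417 CPM in the eluates (log2 3.40 ± 0.40, adjusted p = 8.82e-07), miR-345-5p was lower (-1.79 ± 0.62, adjusted p = 0.0155), and miR-129b-3p was not called (0.59 ± 0.44, adjusted p = 0.241). None of the 3 was called higher on the bait than on the control, where miR-188-5p differed by 0.66 ± 0.40 (adjusted p = 0.158). The 37 miRNAs carry 35 seeds. The 85 carry 69, and the let-7 seed alone brings 10 of these names through the same 6mers, 8 of them higher. Earlier results on these libraries had already been read for such sites, so none of these shares is independent support.

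Sites and retention did not map onto each other one to one. Of the miRNAs high on the bait, miR-3103-3p had a 7mer-m8 site at positions 35 to 41 (9.87% of other 3'UTRs have one), miR-206-3p a 7mer-m8 site at 781 to 787 (13.5%) and miR-31-5p a 7mer-A1 site (14.2%). miR-21a-5p had a 7mer-m8 site at 162 to 168 (7.53%) and was among the most depleted. The 8 higher let-7 members with the seed GAGGUAG had only the pair of 6mers at 454 to 459 and 526 to 531, and an 8mer or 7mer for that seed stood in 11.2% of other 3'UTRs. let-7j, with the seed GAGGUAU, had a 7mer-m8 site at 453 to 459 and the 6mer at 526 to 531. miR-24-3p had a 6mer at 84 to 89. The seed of miR-130 and miR-301 had no 8mer or 7mer site, and neither had that of miR-34 and miR-449, against 10.52% and 16.5% of other 3'UTRs. A match describes these letters in the annotated 3'UTR and is not evidence of binding.

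Base content of the mature sequences was much alike among the calls, over the names with a sequence. The median A and U content was 50.0% in the 84 higher, 52.2% in the 96 lower and 50.0% in the 71 not called, and a first base of U was carried by 45.2%, 44.8% and 43.7%. Of the 84 higher with a sequence, 46 were 5p and 32 3p names, and of the 96 lower, 32 were 5p and 47 3p.

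The MS2 control was put through the same purification, and in this method it is the tag alone. It was compared in libraries of differentiated cells. The comparison shares the bait libraries with that against input, so the values are only set side by side. Against it, 51.7% of the 298 miRNAs were higher on the MRTF-A bait and 42 lower (14.1%), with a median of 1.54. Only the deposited scaling was used for bait against control. Its factors were 0.551 to 0.634 on the bait and 1.24 to 2.37 in the control, so the counts and the size of each difference depend on it. miR-1a-3p was at 5764 ± 1048 CPM in the control, below the bait by a log2 difference of 6.63 ± 0.61 (adjusted p = 4.56e-08). miR-31-5p was at 1916 ± 353 CPM in the control (6.41 ± 0.34), miR-206-3p at 272 ± 27.6 CPM (6.08 ± 0.53) and miR-140-5p at 313 ± 47.1 CPM (6.60 ± 0.48). miR-34c-5p (6.34 ± 0.35), miR-199a-5p (5.76 ± 0.33), let-7g-5p (6.96 ± 0.51) and let-7f-5p (5.14 ± 0.34) were also higher on the bait than on the control. All 8 passed, and the adjusted p of miR-1a-3p was the highest of them.

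Several miRNAs depleted against input were low on the control too. miR-21a-5p was at 5762 ± 476 CPM in the control against 126893 ± 20411 CPM in input, and its difference between bait and control was -1.42 ± 0.32 (adjusted p = 0.000727), next to -5.87 between bait and input. miR-30a-5p was at 999 ± 475 CPM in the control (-1.04 ± 0.37, adjusted p = 0.0211). miR-133b-3p did not differ detectably between bait and control (0.02 ± 0.65, adjusted p = 1.00), and neither did miR-25-3p (0.98 ± 0.68, adjusted p = 0.221), with 4 reads of it in the control. miR-133a-3p, lower than input under some fits only, was higher than on the control (2.87 ± 0.82, adjusted p = 0.00502), and so was miR-378a-3p (3.31 ± 0.33, adjusted p = 1.35e-07). miR-199a-3p was lower against both, at 8188 ± 971 CPM in the control (-4.60 ± 0.40).

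Some miRNAs above input were higher still on the control. miR-615-3p, from an intron of Hoxc5 and picked with miR-5106 and miR-5119 after their values were seen, was at 174, 199.2 and 118 CPM in the inputs, 2249.6, 2442 and 2356 CPM in the bait eluates and 226069, 232495 and 59521 CPM in the control. Its log2 fold change was 3.79 ± 0.41 over input and -5.96 ± 0.41 against the control, so every control library was far above every bait library. miR-5106 stood at 3.30 ± 0.63 and miR-5119 at a ratio of 72.4 (95% counting interval 19.3 to 610.0) over input (2 input reads), and at -2.35 ± 0.63 and -2.02 ± 0.46 against the control.

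Undifferentiated cells gave the same comparison in libraries shared with none of those above. The p-values of both states used a spread shared over all libraries of the fit, so the calls are not fully independent. The names tested were those kept by the filter on the differentiated libraries, so names abundant only in undifferentiated cells were left out. In undifferentiated cells 71 of these 298 were higher on the bait (23.8%) and 48.3% lower, with a median of -1.20. Among the 298, 69 were higher in both states, 67.6% of the differentiated and 97.2% of the undifferentiated higher calls. Another 101 were lower in both, 90.2% of the differentiated and 70.1% of the undifferentiated lower calls. The 4 called in opposite directions were miR-125a-3p, miR-193b-3p, let-7f-2-3p and let-7f-1-3p, each higher in differentiated and lower in undifferentiated cells. With library totals the differentiated calls of miR-125a-3p (adjusted p = 0.123), miR-193b-3p (0.0530) and let-7f-1-3p (0.143) ended. miR-31-5p rose by 7.02 ± 0.34 in differentiated and 7.63 ± 0.34 in undifferentiated cells, miR-140-5p by 8.90 and 9.54, and miR-34c-5p by 6.72 and 6.57. miR-21a-5p fell in both, by log2 fold changes of -5.87 and -6.48.

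The difference between the states was tested as an interaction in limma: 51 miRNAs had a higher fold change in differentiated cells (17.1%) and 10 a lower one (3.36%), 20.5% in all, around a median difference of 0.90. That median and the split of calls depended on the scaling: it was 0.60 with 13 higher and 10 lower under library totals, -0.23 with 16 and 41 under relative log expression factors, 1.01 with 61 and 3 in edgeR and -0.51 with 8 and 36 in DESeq2. Without 1 library at a time the higher calls numbered 24 to 48, and 24 without differentiated input A. Only 3 higher (miR-125a-3p, let-7f-2-3p and let-7f-1-3p) and 1 lower (miR-6236) had the same call under all 6 scalings and tests. miR-125a-3p was at 18.4, 31.9 and 10.8 CPM in the differentiated inputs and 91.6, 96.6 and 103 CPM in the eluates, with a state difference of 3.65 ± 0.71 (adjusted p = 0.00299). In undifferentiated cells it was at 380.6, 256 and 515 CPM in the inputs and 76.7, 116 and 113 CPM in the eluates. miR-6236 was lower on the bait in both states, at log2 -5.02 in differentiated and -1.58 in undifferentiated cells, and the state difference was -3.45 ± 0.82 (adjusted p = 0.00910).

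miR-1a-3p could not be compared evenly between the states. It had 0 reads in undifferentiated input and 10 in the undifferentiated eluates, so its fitted difference of 4.13 ± 0.86 (adjusted p = 0.00348) depends on the pseudocount, and it was -1.58 in DESeq2. miR-206-3p was in both inputs: its fold change was 3.88 in differentiated and 2.38 in undifferentiated cells, a difference of 1.49 ± 0.75 that did not pass (adjusted p = 0.175). miR-133a-3p likewise stood at -1.53 and -4.52 (adjusted p = 0.0739). In the let-7 family let-7a-5p differed by 2.27 ± 0.51 (adjusted p = 0.00657) and let-7b-5p by 0.01 ± 0.47 (adjusted p = 0.988), on either side of the median of 0.90.

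**Figure D5:**
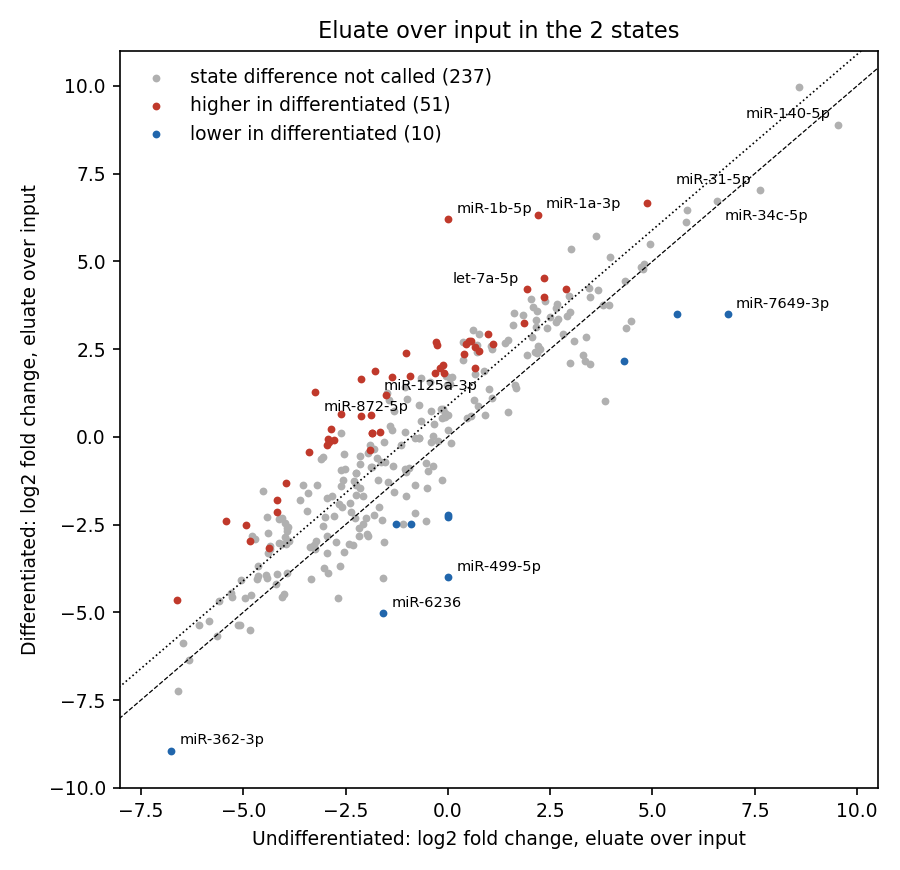
Log2 fold change of MRTF-A bait eluate over input in undifferentiated cells (x axis) against that in differentiated cells (y axis), one point per miRNA tested, with the state difference's calls marked. The points lie above the diagonal by a median of 0.90 on the deposited scale, and miR-31-5p and miR-140-5p lie at upper right near it.

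The cell type was checked against marker miRNAs. MyomiRs together took 12.5% to 16.9% of the reads of the differentiated inputs and 36.6% to 41.1% of the bait eluates. These sums hold both names of the miR-486 molecule, whose reads may be counted under each. In input they stood at means of 21047 and 21119 CPM, within myomiR sums of 92358 to 115570 CPM. In the eluates miR-1a-3p alone took 30.8% to 34.1%. The sum was thus high in every library of both groups, but single members were not: miR-208b-3p had no eluate read and miR-499-5p almost none. Of the blood list, 4 of 7 names in the table had no read in the 6 libraries (miR-142-3p, miR-142-5p, miR-223-3p and miR-150-5p), and only miR-486-5p, also a myomiR, could be tested. No epithelial marker was abundant enough to test, and the 8 together summed to 25.7 to 43.2 CPM in input and 3.33 to 17.4 CPM in the eluates. Both tested neural markers were lower on the bait under every scaling and test, miR-128-3p (-2.52 ± 0.49) and miR-9-5p (-1.40 ± 0.61), the list summed to 1871 to 2570 CPM in input and 296 to 725 CPM in the eluates, and miR-9-3p, miR-124-3p and miR-137-3p were at 0. miR-143-3p and miR-145a-5p, of the endothelial and smooth muscle list, were both lower under every scaling and test. With 0 eluate reads, miR-145a-5p could only be lower. That list summed to 23202 to 52914 CPM in input and 4020 to 4604 CPM in the eluates, and both arms of miR-126a were at 0. None of the 26 Dlk1-Dio3 names was abundant enough to test, and 16 had no read in the 6 libraries. Over all 298 miRNAs the share lower was 37.6%. The part of other cells in these results was not tested.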

How the data were processed

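Small RNA of differentiated C2C12 cells was compared between 3 MRTF-A bait eluates and 3 inputs. The members and the lists of miRNAs were chosen with earlier results of these data known. Per the submitters' processing notes, the tools were Bowtie2 2.0.13, cutadapt 1.4.2, edgeR 3.18.1 and featureCounts 1.4.6, on GRCm38/mm10. What the sources used here do not give is the strand counted and the handling of reads matching several miRNAs. The deposited signal is a normalised CPM by the authors per miRNA and library, and the deposited table also holds the authors' log2 fold changes and p-values, of which only counts of calls and signs are used. Whole reads were recovered from the CPM steps (100% of values within 0.01 read), and gave the depths.

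The test was limma 3.58.1 in R 4.3.3 with an intensity trend, on log2(CPM + 10), where 10 is the pseudocount, over all 18 libraries with 6 group means. A fold change on that scale understates the change of low miRNAs. miRNAs were kept by filterByExpr (minimum count 10) on the 6 libraries. P-values were adjusted by Benjamini-Hochberg over the 298 miRNAs kept, with a threshold of 0.05. The unit matched the planned test. edgeR 4.0.16 on the recovered reads called 113 higher and 119 lower, and DESeq2 1.42.0 115 and 117. Limma on the 6 libraries alone called 119 higher and 130 lower, against 102 and 112 with the spread shared over all 18. Some miRNAs given as not called therefore passed on the 6 libraries alone. Other alternatives were the pseudocount, filter, scaling, libraries in the fit, each library left out, and a block by column suffix. Deviations from the group means correlated between same-suffix inputs and eluates (r across miRNAs 0.16, 0.36 and 0.46 for A, B and C). Input A correlated more with eluate B (0.26) than with eluate A, so it stayed uncertain whether suffixes pair libraries. The main fit had no block, and its p-values treat the libraries as unpaired.

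Named miRNAs were the 12 highest and 12 lowest fold changes that passed with a mean of at least 50 CPM and no overlap of the groups, the 8 most abundant of each group, up to 4 examples of each list, the 5 largest and 5 smallest state differences, hairpins with arms called in opposite directions, the 6 highest and 3 lowest seed families, miRNAs with an 8mer site, and members next to the threshold. Ratios with 1 to 3 reads carry an exact 95% binomial interval, and folds against 0 reads use a floor of 3 reads per library. Tables and figures were made in Python 3.11.15 (pandas 2.3.3, numpy 2.4.6, matplotlib 3.10.9, scipy 1.17.1). Gene models were those of GENCODE vM21, and other 3'UTRs were cut to their first 1004 bases.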

Additional observations from a re-analysis of the deposited data

Results flagged for a closer look

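The fold change of bait over input differed between differentiated and undifferentiated cells for 30 of the named miRNAs, by the interaction term of limma. The differences below are on the log2 scale, differentiated minus undifferentiated. They stand around a median of 0.90 over all 298 miRNAs, and with relative log expression factors or DESeq2 that median was below 0, so differences near it are set by the scaling.

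In the let-7 family the difference was 2.27 for let-7a-5p, 1.34 for let-7c-5p, 1.63 for let-7d-5p, 1.96 for let-7e-5p, 1.53 for let-7f-5p and 1.90 for let-7i-5p. The passenger arm let-7f-1-3p differed by 3.78, at 129.5 ± 38.3 CPM in undifferentiated input and 27.4 ± 29.4 CPM in the undifferentiated eluates against 17.999 ± 3.61 CPM and 83.1 ± 40.5 CPM in differentiated cells. miR-125a-3p differed by 3.65 and miR-872-5p by 4.52. miR-872-5p, rare in all groups, was at 130.3 ± 61.9 CPM and 5.11 ± 8.85 CPM in undifferentiated and 66.7 ± 13.9 CPM and 177 ± 41.3 CPM in differentiated cells.

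Muscle miRNAs were limited by the undifferentiated libraries. miR-1b-5p differed by 6.21 and miR-499-5p by -4.00, and both had 0 reads in the undifferentiated inputs and eluates, so the values restate the differentiated fold changes. miR-1a-3p differed by 4.13, with 0 undifferentiated input reads. miR-378a-3p differed by 1.78, miR-378d by 1.54, miR-22-3p by 2.01, miR-143-3p by 1.20 and miR-128-3p by 2.42. For miR-22-3p the log2 fold change was -2.15 in differentiated and -4.16 in undifferentiated cells.

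Other differences above 0 were 1.91 for miR-148b-3p, 1.38 for miR-190b-5p, 2.69 for miR-193a-3p, 2.67 for miR-193b-3p, 1.78 for miR-199a-5p, 2.37 for miR-214-5p, 1.96 for miR-222-3p and 3.01 for miR-31-3p. Those below 0 were -2.18 for miR-362-3p, -2.09 for miR-449a-5p, -2.15 for miR-466p-3p, -3.45 for miR-6236 and -3.34 for miR-7649-3p. miR-449a-5p and miR-466p-3p had 0 reads in differentiated input, and miR-7649-3p 1 read. The call of miR-362-3p ended without differentiated input B (limma adjusted p = 0.0571) or C (0.0758), differentiated eluate A (0.0663), undifferentiated input B (0.0665) or undifferentiated eluate A (0.0534), and with edgeR (0.286). Calls also ended for miR-7649-3p in edgeR (0.340), DESeq2 (0.0538) and at a pseudocount of 1 (0.199), for miR-466p-3p in edgeR (0.694) and DESeq2 (0.333), for miR-872-5p with library totals (0.0998) and for miR-6236 at a pseudocount of 1 (0.0695). Those of miR-1a-3p and miR-1b-5p ended in edgeR (0.443 and 1.00) and DESeq2 (0.463 and 0.308), and that of miR-499-5p in edgeR (1.00). Of the 30, let-7f-1-3p, miR-125a-3p and miR-6236 had the same call under all 6 scalings and tests. The cause of these differences was not tested.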

How the results depend on the processing

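Counts of calls for bait over input stayed within 1.5 times 102 and 112, except that lower calls were 177 with no filter (1303 tested) and 73 at a mean of at least 100 CPM (192 tested), where the numbers tested differ. Higher calls were 98 to 101 and lower calls 103 to 111 without 1 library at a time. Blocking by suffix gave the same 102 and 112, with 4 calls lost and 4 gained, and changed no call of a named miRNA beyond the 5 given in the report. For the state difference it gave 46 and 9. Directions turned for miR-222-3p (-1.07) and miR-378a-3p (-1.06) with library totals, for miR-3107-5p with library totals (-0.41) and with totals without the top miRNA (-0.098), and for the state difference of miR-1a-3p in DESeq2 (-1.58). Calls of the state difference were 23 higher and 5 lower at a pseudocount of 1, 16 lower at 50, 28 higher with no filter, 13 higher with library totals, 16 and 41 with relative log expression factors, 3 lower in edgeR, 8 and 36 in DESeq2 and 81 higher on 12 libraries. Left-out libraries gave 24 to 48 higher and 8 to 11 lower, with 24 and 28 higher without differentiated input A and C, 30, 32 and 32 without differentiated eluate A, B and C, and 26 without undifferentiated input C. With 8mers only, 33.3% of miRNAs with a site were higher. Of 2395 values for single miRNAs under alternatives, 2208 had the same direction and side of the threshold, 94 passed newly, 88 no longer passed and 5 turned direction. The cause was not tested. Input depth (1.84 to 2.15 CPM per read) limits folds of miRNAs with few input reads.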
